A study of Homo sapiens with 42 samples.

Results

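Divergent transcripts named -DT were followed through drug and salt treatment of K562, an established human chronic myeloid leukaemia line that carries the BCR-ABL1 fusion kinase. Members were chosen by symbol and by nuclear counts, as all gene rows whose symbol ends in -DT and that held 5 or more counts in at least 3 of the 15 nuclear libraries. This gave 389 members of 578 -DT symbols, among 58243 gene IDs in the tables. The count threshold used the nuclear counts themselves, so detection in nuclear RNA is not a finding. The 17 members that just met it, with 3 such libraries, held 18 to 283 counts summed over the 15 libraries (median 44), and the 17 symbols that just missed it, with 2 such libraries, held 22 to 50 (median 37).

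Cells were untreated (CTRL), exposed to 1 μM imatinib (IM), which inhibits the BCR-ABL1 kinase, for 1, 6 or 18 h, to 5 μM JTE-607 (JTE), which inhibits the cleavage nuclease CPSF73, for 1, 6 or 18 h, or to 110 mM KCl, an osmotic stress, for 1 or 3 h. Nuclear RNA depleted of ribosomal RNA was sequenced for CTRL, IM1h, IM18h, JTE1h and KCl1h (15 libraries), and poly(A) mRNA of whole cells for CTRL and all 8 treatment times (27 libraries), with 3 biological replicates per group. All groups are the same line without any engineered change, so the findings hold for K562 alone. Library totals ran from 16175394 to 25103205 counts in nuclear RNA and from 16439848 to 22505595 in mRNA, apart from mRNA KCl1h replicates 2 and 3, which held 62953314 and 42474454. The erythroid markers GATA1, TAL1, HBG1, HBG2 and HBE1 were present in every library, with GATA1 between 176.9 and 233.0 CPM (counts scaled to the library total after TMM adjustment) in nuclear RNA, while CD3E reached at most 0.267 CPM and CD14 at most 0.873 CPM there.

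Many mammalian promoters start RNA polymerase II in both directions. The strand that runs away from the coding gene usually ends early, at polyadenylation signals close to its start, and its RNA is mostly degraded by the nuclear exosome, a 3′ to 5′ nuclease complex that helicase and zinc-finger adaptors bring to its substrates. Longer and more stable products of this kind are annotated as long non-coding RNAs (lncRNAs) and take the name of the neighbouring gene with the ending -DT, for divergent transcript.

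All 389 members were lncRNA in GENCODE 44. A partner gene was in the tables for 388 of them, always protein-coding and always on the other strand. The member started within 2000 bases of the partner's start in 367 pairs and 0 to 2000 bases upstream of it in 288. The median distance was 112 bases (quartiles 1.75 and 236). The median exonic length was 1519 bases for members and 5681.5 bases for partners. Exon bases were shared with the partner by 81 members and with any gene by 140. Counting used no strand, so reads of a member and of a gene opposite its exons cannot be told apart, and pairs over exons of both genes were left out.

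**Figure D1:**
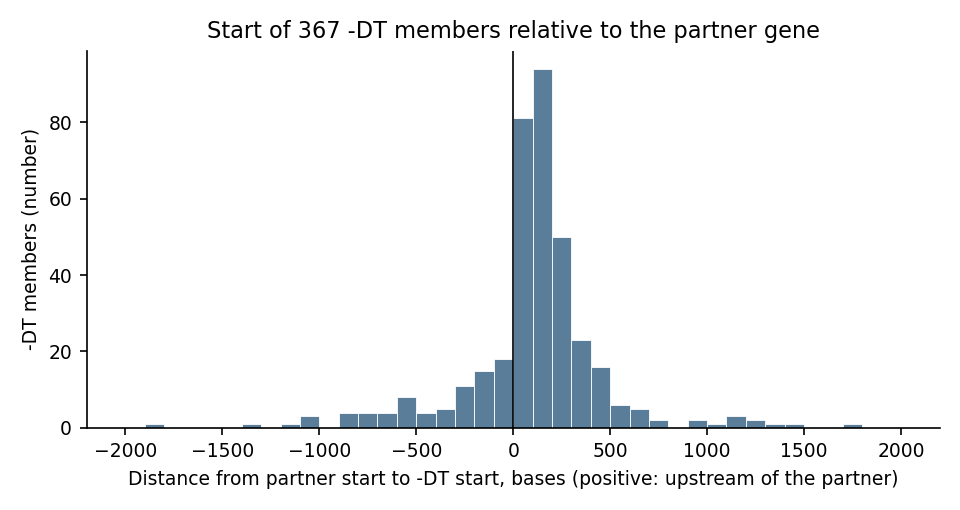
Histogram of the distance from the partner's annotated start to the member's start, in bases (bins of 100), for the 367 members within 2000 bases. Positive values lie upstream of the partner, where the tallest bars stand just beyond 0.

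The regions between both starts are shown for 4 pairs because their members are among the large responses described below and share no exon bases with any gene: AKAP1-DT (higher after 18 h of imatinib), PCCA-DT (lower after 18 h of imatinib), PRKACB-DT (lower with KCl) and PPM1J-DT (higher with KCl). Each line is hg38 sequence on the partner's strand, 5′ to 3′, with capitals from the annotated start of the member to that of the partner.
AKAP1-DT, chr17:57084939-57085178, plus strand: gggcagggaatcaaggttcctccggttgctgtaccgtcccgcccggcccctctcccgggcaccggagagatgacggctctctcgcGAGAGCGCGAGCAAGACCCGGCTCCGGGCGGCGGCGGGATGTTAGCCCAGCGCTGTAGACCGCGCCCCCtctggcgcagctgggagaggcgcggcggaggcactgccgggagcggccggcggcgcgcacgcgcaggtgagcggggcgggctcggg
PCCA-DT, chr13:100088812-100089051, plus strand: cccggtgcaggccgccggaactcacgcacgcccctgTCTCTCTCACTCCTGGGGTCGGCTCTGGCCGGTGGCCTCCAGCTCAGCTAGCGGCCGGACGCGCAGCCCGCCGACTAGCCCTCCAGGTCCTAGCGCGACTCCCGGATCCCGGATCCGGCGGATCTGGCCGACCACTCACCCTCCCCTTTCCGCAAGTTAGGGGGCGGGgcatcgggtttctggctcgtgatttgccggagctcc
PRKACB-DT, chr1:84077877-84078116, plus strand: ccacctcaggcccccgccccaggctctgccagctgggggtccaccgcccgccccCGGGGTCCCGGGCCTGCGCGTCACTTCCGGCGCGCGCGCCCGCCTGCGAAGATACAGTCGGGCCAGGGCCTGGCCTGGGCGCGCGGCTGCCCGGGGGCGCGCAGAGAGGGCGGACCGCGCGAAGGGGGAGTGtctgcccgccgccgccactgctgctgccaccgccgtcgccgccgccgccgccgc
PPM1J-DT, chr1:112715455-112715694, minus strand: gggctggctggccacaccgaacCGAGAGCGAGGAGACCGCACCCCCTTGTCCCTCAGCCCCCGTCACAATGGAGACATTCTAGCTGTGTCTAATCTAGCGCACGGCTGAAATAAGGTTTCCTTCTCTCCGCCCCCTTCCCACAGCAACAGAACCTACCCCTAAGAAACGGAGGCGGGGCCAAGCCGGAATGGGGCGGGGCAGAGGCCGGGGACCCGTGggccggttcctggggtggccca
In hg38 the member transcripts lie at chr17:57078298-57085024 (AKAP1-DT, minus strand), chr13:100086031-100088848 (PCCA-DT, minus), chr1:84076331-84077931 (PRKACB-DT, minus) and chr1:112715672-112717796 (PPM1J-DT, plus). The distance between the starts was 68 bases for AKAP1-DT, 167 for PCCA-DT, 131 for PRKACB-DT and 195 for PPM1J-DT. G and C made up 75.8%, 70.4%, 81.7% and 64.6% of these windows, in that order, with 34, 25, 36 and 15 CpG dinucleotides. The window of each pair held GGGCGG on either strand 3, 1, 3 and 2 times, and CCAAT and TATAAA on neither strand.

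Across the members, the 300-base window from 250 bases before to 50 bases after the start was rich in G and C, with a median of 68.0% against 65.7% for partners, 57.3% for the 21893 genes tested in nuclear RNA with a window and 51.0% for other lncRNA genes. The letters GGGCGG, on either strand, were in 70.7% of member windows and 45.4% of all windows, TATAAA in 3.6% and 11.2%, and CCAAT in 31.6% and 34.8%. AATAAA, the core polyadenylation signal, was in the first 1000 genomic bases on the transcribed strand of 39.3% of members, against 14.7% of partners, 28.2% of all genes and 41.3% of other lncRNA genes. GTAAGT, which resembles a 5′ splice site, was there in 18.3% of members and 16.3% of all genes. These shares describe letters in fixed windows, and member and partner windows overlap.

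In untreated nuclei the members were weakly expressed. Per kilobase of exon, the median member stood at 0.638 RPKM (CPM per kilobase of exon) and the median partner at 8.13 RPKM, and 355 of 388 members were below their partner. In mRNA the medians were 0.268 and 7.36 RPKM, with 359 of 388 members below their partner. The CPM of a member was higher in nuclear RNA than in mRNA for 345 of 389 members, with a median log2 ratio of 0.944, against 235 of 388 partners and a median of 0.124. The fractions were normalized separately, so this ratio is relative to the other genes of each library.

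The highest nuclear level was that of NUDT19-DT, beside a Nudix hydrolase gene, at 13.7 ± 1.97 RPKM (SD, n = 3), above its partner at 11.9 ± 0.342. TBC1D22A-DT stood at 12.8 ± 0.780 RPKM, ZNF584-DT at 11.2 ± 0.968 and MRPL20-DT at 9.98 ± 0.979. Each of these 4 differed from the next named here by less than the sum of their SDs. All members together took 0.0921% to 0.0984% of the counts of the CTRL nuclear libraries, 0.133% to 0.148% in IM18h and 0.0785% to 0.0845% in KCl1h.

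The first comparison asks how these transcripts responded to imatinib in nuclear RNA. After 18 h the members rose far more often than they fell. Of 313 members that passed the low-count filter, 124 were called higher (39.6%) and 21 lower (6.71%), where 17.2% and 15.4% of all 21929 genes tested were called (quasi-likelihood test of edgeR, p adjusted after Benjamini and Hochberg, where called means a change past 0.6 in log2 at 0.05). The median log2 fold change was 0.60 for the members, -0.09 for 381 partners and 0.00 for all genes. Partners were called higher in 44 cases and lower in 74. Other lncRNA genes were called higher in 21.8% and lower in 11.8% of 3883, a direction they share with the members. In bulk RNA, a change in the share of cells that express a transcript and a change per cell cannot be told apart.

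**Figure D2:**
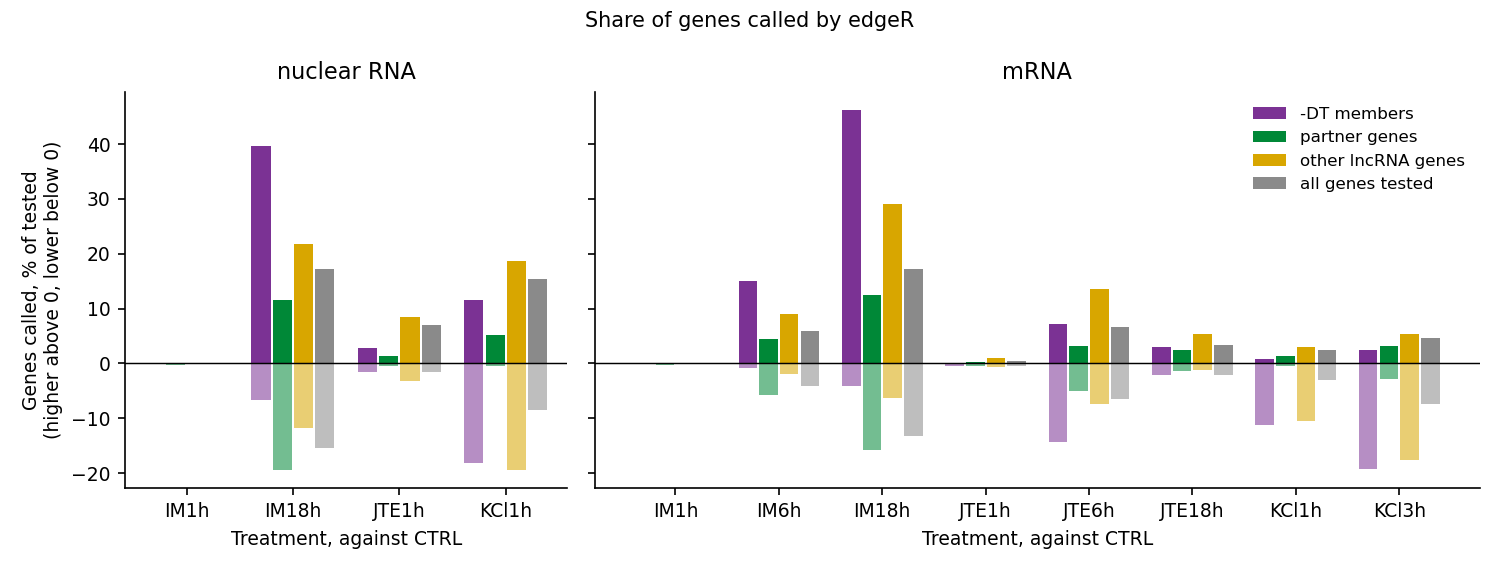
Percent of tested genes called higher (bars above 0) or lower (bars below 0) by edgeR in each treatment against CTRL, for -DT members, their partner genes, other lncRNA genes and all genes, in nuclear RNA and mRNA. At IM18h, 39.6% of members were called higher in nuclear RNA and 46.2% in mRNA.

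SLC2A1-DT, divergent to the glucose transporter gene SLC2A1, gave the largest rise among called members with a mean of at least 1 CPM in IM18h and no overlap with CTRL. It stood at 3.49, 4.51 and 4.75 CPM in CTRL and at 57.7, 50.4 and 62.4 CPM in IM18h. Every IM18h library exceeded every CTRL library (3.74 ± 0.17 in log2, SE, with adjusted p 1.46e-11 by edgeR). SLC2A1 itself rose from 235 ± 32.3 to 638 ± 77.6 CPM (log2 fold change 1.44). SLC2A1-DT (chr1:42959049-42983358, plus strand) starts inside SLC2A1 and shares exon bases with it.

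AKAP1-DT rose against its partner. Its CTRL libraries held 0.402, 0.228 and 0.644 CPM and its IM18h libraries 6.33, 3.78 and 3.98 CPM (3.48 ± 0.36 in log2, SE, with adjusted p 1.78e-07 by edgeR). AKAP1, which anchors protein kinase A at mitochondria, went from 123 ± 11 to 81.2 ± 14.1 CPM and was called lower (log2 fold change -0.60). The starts of this pair, in the first sequence above, lie 68 bases apart, and their exons share no bases.

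PDGFA-DT, beside the growth factor gene PDGFA, stood at 0.894, 0.683 and 0.347 CPM in CTRL and at 6.33, 4.78 and 5.32 CPM in IM18h, again with no overlap (log2 fold change 3.07, SE 0.27). PDGFA was not called, at 11.4 ± 3.81 and 9.17 ± 0.625 CPM. OXA1L-DT rose from 0.484 ± 0.0974 to 3.4 ± 0.467 CPM (log2 fold change 2.81). Its partner OXA1L, a mitochondrial membrane insertase gene, was not called, with a log2 fold change of -0.11, and shares exon bases with OXA1L-DT.

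Among the 5 largest falls by the same rule, 3 ran with the partner. HK2-DT (chr2:74832655-74833987, minus strand), at the hexokinase 2 gene, went from 7.15, 6.70 and 8.91 CPM to 0.857, 2.15 and 2.05 CPM (-2.20 ± 0.25 in log2, SE, with adjusted p 7.73e-07 by edgeR). HK2 fell further, from 160.3 to 16.7 CPM on average (log2 fold change -3.27). FMNL1-DT changed by -1.54 with FMNL1, a formin gene, at -1.22, and RNASEH1-DT by -1.18 with RNASEH1, a nuclease for RNA-DNA hybrids, at -1.45. Each of these 3 members shares exon bases with its partner.

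PCCA-DT and TBC1D22A-DT fell without their partners. PCCA-DT stood at 5.32, 4.96 and 7.13 CPM in CTRL and at 1.27, 2.58 and 2.52 CPM in IM18h (-1.47 ± 0.23 in log2, SE, with adjusted p 2.29e-05 by edgeR). PCCA, a subunit of propionyl-CoA carboxylase, was at 14.3 ± 0.867 and 17.1 ± 3.04 CPM and was not called. TBC1D22A-DT fell from 8.56 ± 0.523 to 3.74 ± 0.377 CPM (log2 fold change -1.20), while TBC1D22A had a log2 fold change of 0.34 and was not called. Neither member shares exon bases with any gene.

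Among the 124 members called higher whose partner was also tested, the partner was called higher in 18, lower in 17 and in neither direction in 89. Among 20 called lower, it was lower in 8, higher in 2 and not called in 10. Among 165 members not called, it was lower in 35, higher in 11 and not called in 119. Across the 309 pairs the log2 fold changes of member and partner had a Pearson r of 0.299 (Spearman rho 0.236), a description over pairs that share libraries.

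**Figure D3:**
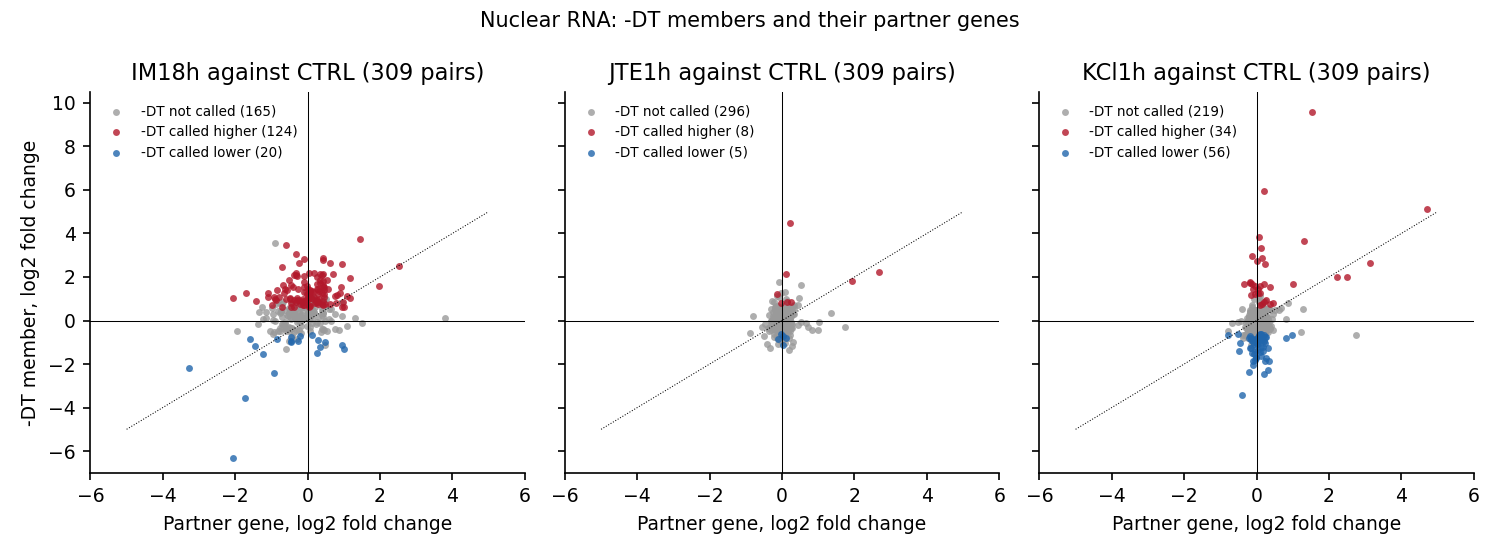
Log2 fold change in nuclear RNA of each -DT member (vertical) against that of its partner gene (horizontal) for 309 pairs in IM18h, JTE1h and KCl1h, coloured by the member's edgeR call, with a dotted line of equal change. The partner was not called for 89 of the 124 members higher and 119 of the 165 not called at IM18h, and for 53 of the 56 lower and 211 of the 219 not called at KCl1h, and the position of a member without counts in a group, such as PPM1J-DT at the top of KCl1h, depends on the prior count.

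The ratio of member to partner within each library was tested directly and was called at an adjusted p under 0.05 (limma, all head-to-head pairs within 2000 bases and the named pairs in 1 fit). At IM18h the ratio rose in 143 of 309 -DT pairs and fell in 23, where 32.3% of all 1466 pairs rose and 20.4% fell. The median log2 change was 0.57 in the -DT pairs. The 1466 pairs include the -DT pairs. In pairs not of a lncRNA and a coding gene, the ratio is that of the minus-strand gene to the other. Its direction there is arbitrary, and 52.7% of all pairs were called in either direction. Among 294 other pairs of a lncRNA and a protein-coding gene, 103 rose and 28 fell, with a median of 0.44.

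For AKAP1-DT the log2 ratio was -7.79, -8.58 and -7.48 in CTRL and -3.35, -4.57 and -4.41 in IM18h, a rise of 3.86 (SE 0.38, limma adjusted p 1.35e-08). The ratio of PDGFA-DT rose by 3.25 and that of TRMT61A-DT by 3.09. In the last pair the member went from 5.67 ± 0.458 to 11.7 ± 1.32 CPM while TRMT61A, a subunit of a tRNA methyltransferase, fell from 25.9 ± 4.66 to 6.19 ± 1.44 CPM, so the member was above its partner in the treated libraries. The ratio fell by 1.97 for STX5-DT, by 1.71 for PCCA-DT and by 1.52 for TBC1D22A-DT. STX5, a Golgi SNARE gene, rose by 0.96 while STX5-DT changed by -1.14. STX5-DT overlaps an expressed gene of the other strand and shares exon bases with another gene, and the part of this in its values was not tested.

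The calls at IM18h were also counted by the surroundings of the members, without a test. An expressed gene here had a mean nuclear level of 10 CPM or more, was not the partner, and overlapped the member or ended within 10000 bases of it on either strand while reading toward it. Among 224 members without such a gene, 105 were called higher and 15 lower at IM18h (46.9% and 6.7%), and among 89 with one, 19 and 6 (21.3% and 6.74%). Of 155 members that also share no exon bases with any gene, 72 were called higher and 10 lower. With only the 280 tested members that had 5 or more counts in every CTRL library, 109 were called higher and 21 lower. Members that start 0 to 250 bases upstream of the partner were called higher in 39.5% of 172, those farther upstream, to 2000 bases, in 37.5% of 64 and those whose start overlaps the partner in 42.9% of 63. AATAAA in the first 1000 bases was as frequent in the members called higher (37.9%) as in those not called (37.5%).

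After 1 h of imatinib no member was called by edgeR or by DESeq2, where 0.0456% of all genes were called, 0.00456% higher and 0.041% lower. At an unadjusted p under 0.05 there were 12 members (3.83%), 5 higher and 7 lower, against 3.85% of all genes. SLC2A1-DT stood at 3.02, 5.04 and 3.75 CPM and AKAP1-DT at 0.269, 0.652 and 0.986 CPM, overlapping the CTRL libraries in both cases. A direct comparison of IM18h with IM1h called 113 members higher and 18 lower, where 16.8% and 14.5% of all genes were called. SLC2A1-DT differed by 3.84 (SE 0.18, with adjusted p 1.36e-11 by edgeR) and HK2-DT by -2.21 (SE 0.25, with adjusted p 7.76e-07 by edgeR) between these times.

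**Figure D4:**
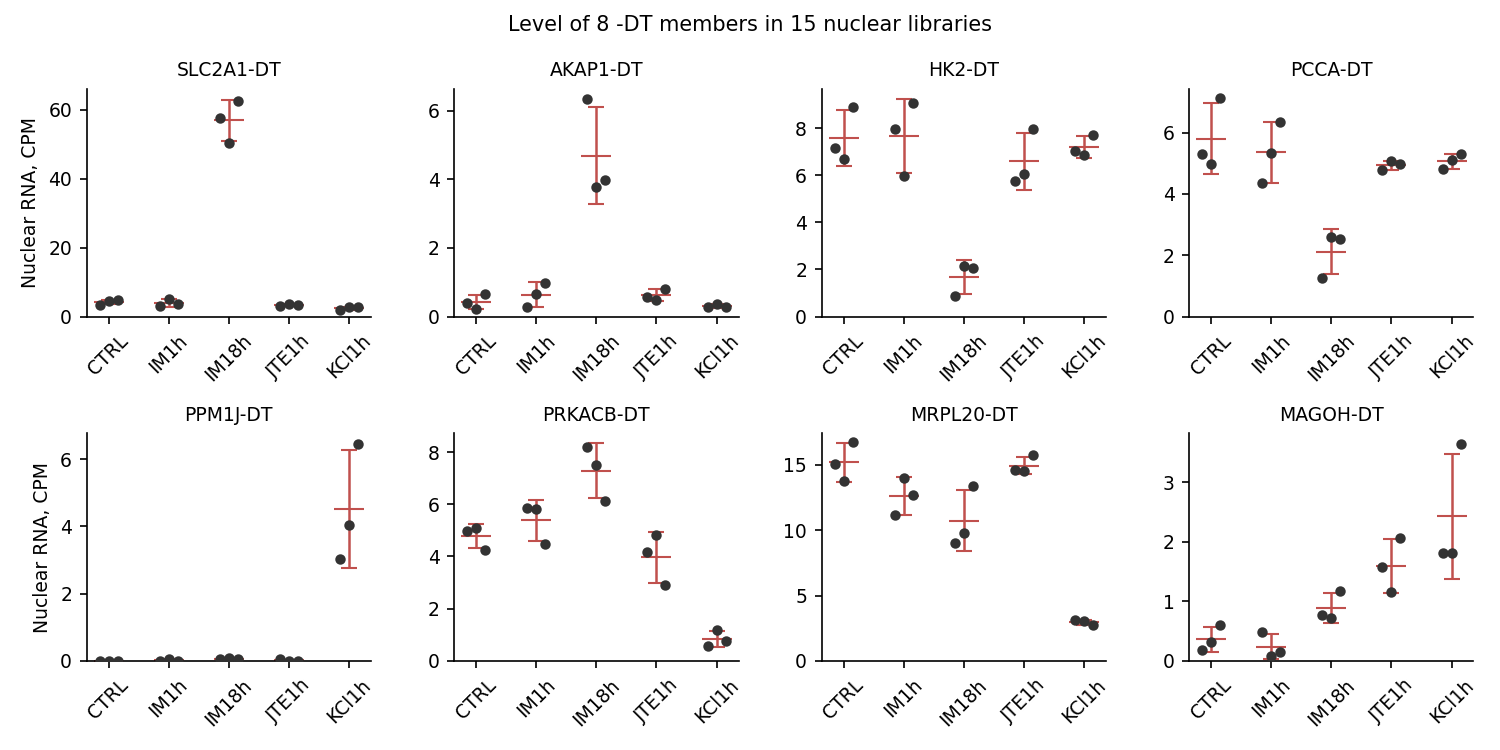
CPM in each of the 15 nuclear libraries (points, 3 per group) for 8 -DT members, with the mean and SD of each group in red. SLC2A1-DT and AKAP1-DT are high in IM18h alone among the 5 groups, HK2-DT and PCCA-DT are low there, PPM1J-DT is high and PRKACB-DT and MRPL20-DT are low in KCl1h, and MAGOH-DT is highest in JTE1h and KCl1h.

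KCl for 1 h lowered more members than it raised, while more of all genes were called higher than lower. Of 313 members tested, 57 were called lower (18.2%) and 36 higher (11.5%), where 8.5% of all genes were called lower and 15.3% higher. The median log2 fold change was -0.19 for members and 0.02 for all genes. Partners were called lower in 2 and higher in 20 of 381. Other lncRNA genes were called lower in 19.4% and higher in 18.6% of 3883. Among the 56 lower members with a tested partner, the partner was not called in 53, and among 219 members not called it was not called in 211.

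PRKACB-DT, divergent to the gene of a catalytic subunit of protein kinase A, held 4.96, 5.10 and 4.26 CPM in CTRL and 0.587, 1.16 and 0.776 CPM in KCl1h. The groups did not overlap (-2.48 ± 0.25 in log2, SE, with adjusted p 2.43e-07 by edgeR). PRKACB was at 5.90 ± 0.666 and 6.84 ± 1.12 CPM and was not called. The 240 bases of this shared promoter shown above were the richest in G and C of the 4 windows.

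MRPL20-DT, near a mitochondrial ribosomal protein gene, fell from 15.1, 13.8 and 16.7 CPM to 3.09, 3.02 and 2.72 CPM (-2.37 ± 0.16 in log2, SE, with adjusted p 1.6e-09 by edgeR). MRPL20 had a log2 fold change of -0.20 and was not called. This member (chr1:1409096-1410618, plus strand) starts 1783 bases upstream of MRPL20 and lies downstream of an expressed gene on its own strand, whose part in these values was not tested.

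ANKRD42-DT went from 13.4, 14.8 and 19.5 to 4.69, 4.42 and 3.98 CPM (log2 fold change -1.86, SE 0.15), with ANKRD42, an ankyrin-repeat gene, at 0.36 and not called. ANKRD42-DT shares exon bases with ANKRD42 and overlaps another expressed gene of the opposite strand, whose part was not tested. FMNL1-DT, which shares exon bases with FMNL1, changed by -2.06 and WAPL-DT, which shares none, at the gene of the cohesin release factor, by -1.88, with partner log2 fold changes of -0.10 and 0.24. The ratio to the partner fell by 2.63 for PRKACB-DT, 2.18 for ANKRD42-DT and 2.13 for MRPL20-DT (limma adjusted p 5.35e-09, 2.8e-09 and 2.45e-09). In all, the ratio fell in 72 and rose in 25 of 309 -DT pairs, where 17.4% and 9.62% of all pairs did, and in 77 and 31 of the 294 other lncRNA and coding pairs. The direction is arbitrary in part of all pairs, as above, and 27% of them were called in either direction.

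The largest rises with KCl were in members near silence in CTRL. PPM1J-DT, divergent to a protein phosphatase gene, had no counts in the 3 CTRL libraries and 57, 87 and 133 counts in KCl1h, 3.04, 4.05 and 6.45 CPM. It was at least 32.3-fold higher, against a floor of 3 counts per CTRL library. PPM1J also rose, from 3.54 ± 0.546 to 10.3 ± 2.83 CPM (log2 fold change 1.54). GJD2-DT, at the gene of a neuronal gap junction protein, had no counts in CTRL and 47, 48 and 78 in KCl1h, at least 20.4-fold higher, while GJD2 was too low to test, with at most 0.267 CPM. These 2 members passed the low-count filter through treated groups where they were high, so no test is given for them.

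MLF1-DT had 1 count in CTRL and 80 in KCl1h, a ratio of 84.8 with a 95% exact counting interval from 14.8 to 3390. ST8SIA5-DT, beside a sialyltransferase gene, rose from 0.179, 0.0911 and 0 CPM to 2.67, 2.7 and 4.9 CPM. ST8SIA5 went from 0.0298 ± 0.0516 to 0.95 ± 0.481 CPM. PSMD14-DT rose from 0.0916 ± 0.0423 to 1.44 ± 0.659 CPM, with PSMD14, a proteasome deubiquitinase gene, at a log2 fold change of 0.08. MLF1-DT, ST8SIA5-DT and PSMD14-DT also passed the low-count filter through groups where they were high, so no test is given for them. CZIB-DT rose from 0.567 ± 0.240 to 5.77 ± 1.49 CPM, and its ratio to CZIB rose by 3.05 (SE 0.36). CZIB-DT lies downstream of expressed genes on both strands, and MLF1-DT and PSMD14-DT overlap an expressed gene of the other strand, and the part of these genes in their counts was not tested.

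Detection in CTRL divided the KCl calls. Among the 280 members with 5 or more counts in each CTRL library, 57 were called lower and 18 higher. Among the other 33, 18 were called higher and none lower, and such members passed the filter through the groups where they were high, so their count is not a result about the members. Among the 89 members that overlap or follow an expressed gene, 16 were higher and 17 lower (18.0% and 19.1%), and among the other 224, 20 and 40 (8.93% and 17.9%). TATAAA was in the window of 16.7% of the 36 higher members, 1.75% of the 57 lower ones and 2.27% of the 220 not called, without a test. The 36 include the 18 with fewer CTRL counts, so neither this share nor the split by expressed gene is a result about the higher members. With the 2 members at 0 in CTRL set to their lower bound, the median of all 313 stayed at -0.19.

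JTE-607 for 1 h changed few members. In nuclear RNA 9 were called higher and 5 lower, where 7% and 1.51% of all genes were called. A fit blocked on replicate number, which paired the nuclear libraries, called 24, with 12 in each direction. The shares of all genes above come from the fit without this block, so the 24 cannot be set against them. Without CTRL replicate 3 the count was 7 and without JTE1h replicate 1 it was 8. Members with 5 or more counts in each CTRL library gave 4 higher and 5 lower. The median log2 fold change was -0.06.

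MAGOH-DT, at a gene of the exon junction complex, rose from 0.179, 0.319 and 0.594 CPM to 1.57, 1.16 and 2.06 CPM with JTE-607 (2.15 in log2). It also rose with KCl, to 1.81, 1.81 and 3.64 CPM (2.74 in log2). MAGOH-DT held 4, 7 and 12 counts in the CTRL libraries. It passed the low-count filter through groups where it was high, so no test is given for it. MAGOH was not called in either comparison, with log2 fold changes of 0.12 and 0.01. MAGOH-DT shares exon bases with MAGOH and overlaps another expressed gene of the opposite strand, whose part in its values was not tested. PDCD6-DT, which shares none, rose from 1.04 ± 0.1 to 2.43 ± 0.374 CPM (1.23 in log2, with adjusted p 0.00102 by edgeR), beside the calcium-binding protein gene PDCD6, which was not called.

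Other JTE-607 calls were smaller. DPH5-DT rose by 0.78 (edgeR adjusted p 0.0031), COPB2-DT by 0.83 (edgeR adjusted p 0.0209) and EPM2A-DT by 0.85 (edgeR adjusted p 0.018), with DPH5, COPB2 and EPM2A not called. Among the falls, ANKRD42-DT went from 13.4, 14.8 and 19.5 to 8.58, 10.1 and 9.08 CPM (-0.78 ± 0.14 in log2, SE, with adjusted p 0.000855 by edgeR), below every CTRL library. The log2 fold changes of GNB1-DT, DPP3-DT, USP46-DT and ODC1-DT were -1.15, -0.86, -0.71 and -0.64, with edgeR adjusted p of 0.0185, 0.0193, 0.0422 and 0.0485. Each of these 4, and COPB2-DT and EPM2A-DT, lost its call when any of 3 to 5 of the 6 libraries concerned was left out. GNB1-DT, DPP3-DT, USP46-DT and ODC1-DT also lost their calls under DESeq2, with adjusted p of 0.0689, 0.0785, 0.108 and 0.0753. DESeq2 called 8 members higher and 1 lower. The partners of these members, among them ODC1, the rate-limiting enzyme of polyamine synthesis, were not called.

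The ratio to the partner was called in 11 -DT pairs with JTE-607, 4 higher and 7 lower, where 5.32% of all pairs were called. With the replicate block it was 28, 9 higher and 19 lower, and without JTE1h replicate 3 it was 6. The share of all pairs comes from the fit without the block and with every library. The ratio rose by 1.83 for MAGOH-DT, 1.29 for PDCD6-DT and 0.82 for DPH5-DT, and fell by 1.34 for CD2AP-DT, 1.08 for GNB1-DT and 0.98 for MVP-DT. For MAGOH-DT, which passed the low-count filter through groups where it was high, no test of the ratio is given. The calls of DPH5-DT, CD2AP-DT, GNB1-DT and MVP-DT were lost without 1, 3, 5 and 3 single libraries, in that order (largest limma adjusted p 0.0566, 0.119, 0.125 and 0.102). MVP-DT stood above its partner, the major vault protein gene, with 8.84 ± 1.06 CPM against 2.48 ± 0.516 in CTRL, and overlaps another expressed gene of the opposite strand.

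KCl and JTE-607, both given for 1 h, were compared directly. With KCl 29 members were higher and 34 lower than with JTE-607, where 10.7% and 5.24% of all genes were called. MRPL20-DT was lower by 2.34 in log2 (SE 0.16, with adjusted p 4.76e-09 by edgeR), PRKACB-DT by 2.21 (SE 0.26, with adjusted p 2.29e-06 by edgeR) and ANKRD42-DT by 1.08 (SE 0.15, with adjusted p 2.3e-05 by edgeR). The balance of these calls turned to 34 higher and 33 lower without KCl1h replicate 1, 27 and 26 without KCl1h replicate 2 and 28 and 26 without JTE1h replicate 3. MLF1-DT, GJD2-DT and ST8SIA5-DT, with 1, 0 and 6 CTRL counts, held 13, 6 and 14, 11, 4 and 15, and 9, 10 and 13 counts in JTE1h. They passed the low-count filter through groups where they were high, so no test is given for them.

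The mRNA libraries show which responses reached polyadenylated RNA of whole cells. Of the 389 members, 327 had 5 or more counts in at least 3 of the 27 mRNA libraries and 238 passed the filter. Imatinib raised members at 6 and 18 h. At 1 h no member was called by edgeR or DESeq2 (7 at an unadjusted p under 0.05, 5 higher and 2 lower, 2.94% against 1.14% of all genes), where 0.0166% of all genes were called. At 6 h 36 were higher and 2 lower, where 5.82% and 4.12% of all genes were called (9.94% in all), and at 18 h 110 were higher and 10 lower, where 17.2% and 13.2% were called. The medians were 0.04, 0.53 and 0.85, against 0.00, 0.04 and 0.04 for all genes. Other lncRNA genes share this direction. Of 2176, 9.01% were called higher and 1.88% lower at 6 h, and 29.1% and 6.25% at 18 h. Their medians were 0.31 and 0.46. The count at 6 h was 20 without CTRL replicate 1, 22 without CTRL replicate 3 and 23 without IM6h replicate 3.

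NUP107-DT, at a nuclear pore gene, stood at 0.165, 0.262 and 0.279 CPM in mRNA of CTRL, at 1.81, 1.22 and 1.87 CPM at 6 h and at 3.58, 2.00 and 2.86 CPM at 18 h (log2 fold changes 2.76 and 3.55). NUP107-DT passed the low-count filter in mRNA through groups where it was high, so no test is given for it. NUP107 was at -0.20 and -0.34 and not called, and shares exon bases with NUP107-DT. SLC2A1-DT rose from 2.01 ± 0.890 to 8.88 ± 4.60 and 23.1 ± 6.91 CPM, and SLC2A1 from 155 ± 13.6 to 236 ± 67.2 and 391 ± 57.4 CPM. HK2-DT fell from 7.09 ± 2.11 to 2.63 ± 0.754 and 1.74 ± 1.01 CPM, with HK2 from 121 ± 9.79 to 22.9 ± 8.06 and 16.6 ± 6.89 CPM. The 6 h call of HK2-DT was lost without CTRL replicate 1 (edgeR adjusted p 0.0607). FMNL1-DT fell at 18 h from 1.59 ± 0.427 to 0.539 ± 0.0462 CPM, a call that was lost without CTRL replicate 3 or IM18h replicate 1 (largest edgeR adjusted p 0.0592).

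With KCl, more members were called lower than higher in mRNA at both times. At 1 h 27 were lower and 2 higher, where 2.94% and 2.51% of all genes were called (5.45% in all), and at 3 h 46 were lower and 6 higher, where 7.33% and 4.55% were called. The medians were -0.42 and -0.44, and 0.01 and 0.02 for all genes. Other lncRNA genes share this direction, and the shares called lower were close in both sets. At 1 h 228 of 2176 other lncRNA genes were called lower and 65 higher, against 27 of 238 members lower. At 3 h 384 (17.6%) were lower and 116 higher, against 46 members lower (19.3%). The medians of the other lncRNA genes were -0.23 and -0.34. Without KCl1h replicate 3, one of the deeper libraries, the 1 h count of called members was 14, and without CTRL replicate 1 it was 17. WAPL-DT went from 1.87, 2.46 and 1.90 CPM to 0.362, 0.285 and 0.116 CPM at 1 h (-3.08 ± 0.37 in log2, SE, with adjusted p 7.63e-06 by edgeR) and to 0.441, 0.378 and 0.0990 CPM at 3 h, while WAPL was at 0.25 and 0.14 and not called. FMNL1-DT changed by -2.51 and -2.42. PRKACB-DT changed by -2.46 and -2.11 and MRPL20-DT by -1.87 and -1.63. YPEL3-DT rose at 3 h from 0.325 ± 0.0890 to 4.09 ± 1.83 CPM (log2 fold change 3.62) and POLG-DT, at the mitochondrial DNA polymerase gene, from 0.435 ± 0.164 to 1.53 ± 0.261 CPM (log2 fold change 1.81). YPEL3-DT lies downstream of an expressed gene of the other strand.

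JTE-607 changed members in mRNA mainly at 6 h. At 1 h 1 member, ANKRD42-DT, was called, from 6.67 ± 1.35 to 2.79 ± 1.04 CPM (edgeR adjusted p 0.0304), where 0.387% of all genes were called higher and 0.464% lower. That call was lost without CTRL replicate 1 or 2 or JTE1h replicate 1 or 3. At 6 h 34 were lower and 17 higher, where 6.47% and 6.73% of all genes were called, with a median of -0.29 against 0.03. Without JTE6h replicate 3 the count of 51 was 30. At 18 h 5 were lower and 7 higher, where 2.09% and 3.29% were called (5.39% in all), with a median of 0.03. Without JTE18h replicate 3 the count of 12 was 4, and it was 6, 7 and 7 without CTRL replicate 1, 2 and 3.

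CD2BP2-DT, at a spliceosome protein gene where it overlaps another expressed gene of the opposite strand, rose at 6 h from 0.992, 0.576 and 1.17 CPM to 3.41, 4.33 and 9.96 CPM (2.7 in log2, with adjusted p 8.53e-06 by edgeR) and stood at 2.58, 2.74 and 2.41 CPM at 18 h, where its call was lost without CTRL replicate 2 (edgeR adjusted p 0.071). SEPTIN7-DT rose at 6 h from 0.760 ± 0.183 to 2.63 ± 0.969 CPM. HK2-DT fell there from 9.20, 4.98 and 7.08 CPM to 1.12, 2.11 and 1.29 CPM (-2.23 in log2, with adjusted p 0.000205 by edgeR), with HK2 at -0.38 and not called. MAP2K5-DT fell by 2.06. At 18 h VPS13B-DT rose from 1.29 ± 0.265 to 3.08 ± 0.725 CPM, a call lost without CTRL replicate 1 or JTE18h replicate 3, and USP46-DT and KDM7A-DT fell by 1.79 and 0.92. Of these 7 members, none had a called partner.

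Of 236 members tested in both at IM18h, 107 were called higher in nuclear RNA and 109 in mRNA, with 83 in common, 77.6% of the first and 76.1% of the second, where over all 16728 genes tested in both the shares were 76.5% and 76.5%. At KCl1h 50 were lower in nuclear RNA and 27 in mRNA, with 20 in common, 40.0% and 74.1%, where the shares over all genes were 34.9% and 70.8%. Tested as an interaction, the difference of nuclear and mRNA response was called for no member by edgeR at IM1h, IM18h, JTE1h and KCl1h, of 249, 271, 247 and 262 tested, where 0%, 0.0901%, 0.0605% and 0.668% of all genes were called. By direction, 0.0551% and 0.0351% of genes were higher and lower in nuclear RNA at IM18h, 0.0555% and 0.00504% at JTE1h, and 0.588% and 0.0806% at KCl1h. At an unadjusted p under 0.05 there were 6, 31, 19 and 16 members, 2.41%, 11.4%, 7.69% and 6.11% of those tested, against 2.03%, 4.88%, 5.93% and 9.65% of all genes. Of the 31 at IM18h, 2 were higher and 29 lower in nuclear RNA than in mRNA. DESeq2 called 0, 0, 0 and 2.

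These interaction counts depend on how the libraries are paired. Blocked on replicate number as in the titles, the fits called 0, 0, 0 and 1 member. The library totals listed by the study put mRNA CTRL replicates 1 and 2 in the other order than the titles. With these 2 numbers exchanged, the blocked fits called 0, 0, 11 and 8 members, 10 of the 11 and 7 of the 8 with the higher response in nuclear RNA, where 5.21% of all genes were called higher and 1.48% lower at JTE1h, and 3.83% and 6.2% at KCl1h. The exchange was added after the data were seen.

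**Figure D5:**
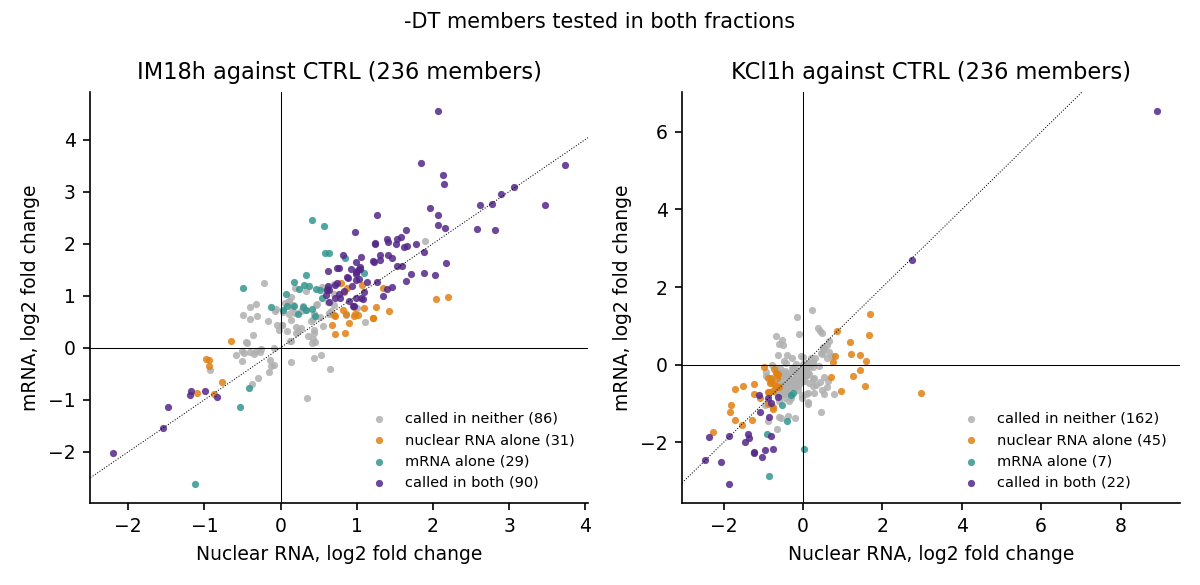
Log2 fold change of the 236 members tested in both fractions, nuclear RNA (horizontal) against mRNA (vertical), at IM18h and KCl1h, coloured by the fractions in which edgeR called the member. Of the members called in both fractions, 83 are higher at IM18h and 20 lower at KCl1h, and the far upper right point of KCl1h is GJD2-DT, whose position depends on the prior count.

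Genes of the machinery that ends and degrades such transcripts were followed as a list of 30, holding exosome subunits and cofactors, their adaptors, cap-binding and restrictor proteins, U1 snRNP proteins and termination factors. At IM18h in nuclear RNA, 8 of the 30 were called lower and none higher, with a list median of -0.40, where 15.4% of all genes were called lower. The 8 were the exosome subunits EXOSC2, EXOSC3, EXOSC4, EXOSC5, EXOSC6 and EXOSC7, the exosome cofactor MPHOSPH6 and the U1 snRNP gene SNRPC. EXOSC4 went from 21.8, 26.2 and 23.6 CPM to 6.57, 10.0 and 9.65 CPM (-1.45 ± 0.15 in log2, SE, with adjusted p 1.69e-07 by edgeR), and EXOSC5 changed by -1.38. EXOSC10, a catalytic subunit of the nuclear exosome, had a log2 fold change of 0.05, and MTREX, its helicase, of -0.32, and neither was called. Whether these falls had a part in the member response was not tested.

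In mRNA, 8 of the list were called lower at IM18h, EXOSC2 to EXOSC7, MPHOSPH6 and SRRT, where 13.2% of all genes were called lower, and 4 at JTE6h, EXOSC2, EXOSC3, EXOSC4 and EXOSC6, where 6.47% were. PCF11, a cleavage and termination factor, rose with JTE-607 in nuclear RNA from 127.4, 110.5 and 102.1 CPM to 225.8, 194.4 and 207.1 CPM (0.88 ± 0.12 in log2, SE, with adjusted p 3.94e-05 by edgeR) and in mRNA at all 3 times. With KCl in nuclear RNA the list median was -0.03.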

How the data were processed

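K562 cells were measured as rRNA-depleted nuclear RNA (15 libraries) and poly(A) mRNA (27 libraries). The authors trimmed and deduplicated reads with fastp, mapped unique reads to hg38 with STAR and counted read pairs over exons with featureCounts without a strand option, and the deposited values are raw counts per gene. The annotation release is not given in the sources used here. Every sample column was used (0 columns without a sample), and exonic lengths in the tables gave RPKM. Gene symbols and types came from GENCODE 44 (57532 of 58243 IDs matched). Starts and exon overlaps came from the exon positions deposited with the counts, and sequence from hg38.

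Genes passing filterByExpr were fitted within each fraction with edgeR 4.0.16 (TMM, robust quasi-likelihood, R 4.3.3), and CPM used TMM-adjusted library totals. Called means an adjusted p under 0.05 with a log2 change beyond 0.6, and for interactions and ratios an adjusted p under 0.05. Ratios used limma 3.58.1 with trend on log2 CPM (prior count 2). DESeq2 1.42.0, other normalizations, no filter, a replicate block and leaving out each library were alternatives. Replicate numbers come from the titles. Deviations of same-numbered nuclear libraries correlated with CTRL at 0.235 to 0.891, so the numbers pair them.

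Members, gene lists and tests were chosen with earlier results of these data known. Named members were those with the largest called changes (5 each way per nuclear comparison, 3 for ratios, 2 for mRNA) with at least 1 CPM in the higher group and no overlap with CTRL, the 5 highest in RPKM, and MRPL20-DT, and a few genes that meet this rule are not reported here. Intervals and floors (3 counts per library) cover counting error only.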

Additional observations from a re-analysis of the deposited data

Results flagged for a closer look

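In nuclear RNA, 131 of 313 tested members differed between 18 h and 1 h of imatinib in the direct comparison of both times (edgeR, 113 higher and 18 lower at 18 h), which marks a response that differs between the time points. Against CTRL, 145 members were called at 18 h and 0 at 1 h, and both comparisons share the CTRL libraries. Groups of 3 libraries are too small to test for a single outlying library. The chi-square per gene between nuclear CTRL libraries was 14.8 and 20.4 for replicate 1 against 2 and 3, and 5.39 between 2 and 3. In the same order it was 12.7, 14.1 and 8.01 in IM1h and 15.8, 24 and 7.08 in IM18h. It was 16.9, 21.6 and 7.77 in KCl1h and 8.38, 15.8 and 9.21 in JTE1h.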

How the results depend on the processing

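Counts of called members were recomputed under each alternative. No value of a single named member changed sign. The balance of calls turned in nuclear JTE1h with only members at 5 counts in each CTRL library (4 higher and 5 lower), in KCl1h against JTE1h and mRNA JTE18h with no filter (40 and 39, 6 and 7), and in the JTE1h ratio without CTRL replicate 2 (5 and 3), beside the left-out libraries given above. With the replicate block, nuclear JTE1h gave 24 called members instead of 14, its ratio to the partner 28 instead of 11, mRNA JTE1h 6 instead of 1, mRNA JTE18h 19 instead of 12, and the nuclear minus mRNA response to KCl1h 1 instead of 0; the block moved no other nuclear count by over 1.5 times. In mRNA, libraries numbered 3 correlated with CTRL at 0.0553 to 0.877, but those numbered 1 at -0.368 to 0.0784 and those numbered 2 at -0.336 to -0.134, so the numbers were not taken as pairs. With mRNA CTRL 1 and 2 exchanged, as the library totals listed by the study have them, the values were 0.104 to 0.869 and 0.243 to 0.844. This replicate block, added after seeing the data, gave 60 for mRNA IM6h, 6 for JTE1h, 20 for JTE18h and, in the interaction, 11 for JTE1h and 8 for KCl1h. DESeq2 gave 9 (8 higher, 1 lower) for nuclear JTE1h, 2 for mRNA JTE1h and 2 for the KCl1h interaction. Nuclear JTE1h gave 9 with only members at 5 counts in each CTRL library. For mRNA JTE1h, library totals and no filter each gave 3, and for the KCl1h interaction RLE normalization and no filter each gave 1. The cause of these moves was not tested.

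Leaving out 1 library gave 7 to 12 for nuclear JTE1h, 20 to 32 for mRNA IM6h (38 with all), 0 to 2 for mRNA JTE1h, 30 to 45 for mRNA JTE6h (51), 4 to 9 for mRNA JTE18h, 14 to 28 for mRNA KCl1h (29), 0 to 1 for the KCl1h interaction and 6 to 10 for the JTE1h ratio. Nuclear IM18h (145) ran from 119 to 145 and nuclear KCl1h (93) from 79 to 89, and under the other alternatives from 130 to 158 and from 75 to 105. Of the values of single named members, 46 with a library left out and 6 under other alternatives lost their call. Mean levels under 1 CPM, common among members, limit how small a change can be called.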

Other observations

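Both IM18h and KCl1h were set against the same CTRL libraries. PRKACB-DT stood at 8.21, 7.5 and 6.14 CPM in IM18h and at 0.587, 1.16 and 0.776 CPM in KCl1h, on either side of its CTRL libraries at 4.96, 5.10 and 4.26 CPM.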
